A study of Mus musculus with 24 samples.

Results

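The enzymes that make, use and recycle glutathione and those that remove superoxide and peroxides were followed in mouse lung from postnatal day 1 to day 42. The set was chosen by gene symbol: all numbered glutathione transferases (Gsta, Gstk, Gstm, Gsto, Gstp, Gstt, Gstz and the microsomal Mgst), glutathione peroxidases (Gpx), peroxiredoxins (Prdx), superoxide dismutases (Sod) and thioredoxin reductases (Txnrd), together with Cat, Nqo1, Hmox1, Gclc, Gclm and Gsr. These were 51 genes, of which 50 had a named probe and 47 entered the tests, out of 15895 genes tested in all. Txnrd2 was not analysed here. Gpx5, Gpx6 and Gstt4 were well above background on 0, 2 and 2 of the 24 arrays and were not tested, whereas each of the 47 tested genes was well above background on all 24.

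Total RNA of whole lung from healthy C57BL/6 mice, with no treatment or altered gene named in the labels, was hybridized to single-colour (Cy3) arrays, which read a transcript as the brightness of a spot. The groups were postnatal day 1, day 4, day 7 and day 14 with n = 5 arrays each and day 42 with n = 4. The series title speaks of fetal lung, but each sample is labelled as postnatal. The labels call the samples biological replicates without naming the animals or their sex, so p-values measure the spread between these samples, and the number of arrays limits the precision. Of the lung's own cells, the 8 alveolar type 2 markers checked (Sftpc and others) averaged 5.25 to 6.80 log2 units above the 75th percentile of each array.

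Glutathione is a small thiol made in a first, rate-limiting step by glutamate-cysteine ligase, whose catalytic and modifier subunits are encoded by Gclc and Gclm. Superoxide dismutases turn superoxide into hydrogen peroxide, which catalase, glutathione peroxidases and peroxiredoxins then remove. Glutathione reductase and thioredoxin reductase restore the spent thiols with NADPH, and glutathione transferases couple glutathione to reactive molecules. After birth the lung breathes air and forms its alveoli, so that this system works in a tissue exposed to oxygen.

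Many of these genes are known targets of the transcription factor Nrf2 (gene Nfe2l2), which with small Maf proteins binds the antioxidant response element. Its core letters TGACNNNGC, in which N is any base, were looked for on both strands in the RefSeq promoter windows of GRCm38.p6, from 250 bases before to 50 after each start. Windows were at hand for 44 of the 51 genes, and none for Gclc, Gsr, Gsta4, Hmox1, Sod3, Prdx6 and Gstt2. The letters were in the windows of 8 of the 44 genes (18.2%), against 3781 (14%) of all 27025 genes with a window. The longer form TGACTCAGC, which overlaps the AP-1 letters TGACTCA, was in 1 of the 44 (2.27%), Prdx1, against 0.503% of all genes. The 8 matches are printed with 15 bases on either side, read along each gene's own strand, because they are the sequence the set could share. Capitals mark the match, which reads as TGACNNNGC or, where it lies on the opposite strand, as the reverse complement of those letters.
Gclm: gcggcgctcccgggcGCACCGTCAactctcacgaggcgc
Gsta3: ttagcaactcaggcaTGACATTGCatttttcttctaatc
Gstm5: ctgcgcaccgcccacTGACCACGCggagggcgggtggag
Gstm7: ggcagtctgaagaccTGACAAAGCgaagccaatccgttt
Mgst1: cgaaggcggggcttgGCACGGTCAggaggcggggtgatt
Prdx1: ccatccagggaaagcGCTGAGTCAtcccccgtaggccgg
Sod1: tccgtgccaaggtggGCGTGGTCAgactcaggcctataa
Txnrd1: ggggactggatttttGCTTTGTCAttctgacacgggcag
In the same order these stretches lie at chr3:122245408-122245446, chr1:21240449-21240487, chr3:107895797-107895835, chr3:107931720-107931758 (minus strand), chr6:138140456-138140494, chr4:116685451-116685489, chr16:90220691-90220729 and chr10:82859099-82859137 of GRCm38.p6, on the plus strand unless given. All 8 matches lay upstream of the start, the nearest at 42 to 34 bases before it (Gstm5) and the farthest at 134 to 126 (Gclm). A match of letters is a description of the sequence and not a measured site. The 8 genes did not share a course: as given below, Gsta3 and Mgst1 were higher at day 42 than at day 1, Gstm5 was lower, and the other 5 did not pass that test.

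A level below is log2 of the processed signal minus the array's 75th percentile, so that 0 is the 75th percentile, and levels of different probes are not compared. Means are given ± SD (n = 5, or 4 at day 42), and differences are log2 differences ± SE from the limma fit with p-values adjusted over all genes tested. Of the 47 genes, 19 (40.4%) differed between any of the ages by limma's moderated F-test at an adjusted p under 0.05, against 31.8% of all genes tested. The step from day 7 to day 14 held 10 higher and 1 lower genes (6.04% and 5.54% of all genes). Day 42 against day 14 gave 2 higher (2.18%) and 1 lower (1.51%), and day 42 against day 1 gave 11 higher (13.0%) and 4 lower (13.7%). Day 4 against day 1 and day 7 against day 4 gave 0 each in limma (0.0629% and 0.00629% of all genes). At an unadjusted p under 0.05 they gave 0 and 2 of the set, against 817 and 1348 of all 15895 genes. When arrays were weighted by quality they gave 1 (2.96% of all genes) and 16 (28.6%). The median log2 difference of the 47 genes was 0.25 from day 7 to 14 (all genes 0.02), 0.45 from day 14 to 42 (all genes 0.07) and 0.19 from day 1 to 42 (all genes -0.06). From day 4 to day 7 it was -0.43 (all genes -0.23).

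Among the 19 genes the mean was highest at day 42 for 14, at day 1 for 4 and at day 4 for 1. The lowest mean was at day 7 for 10, at day 14 for 4, at days 1 and 42 for 2 each and at day 4 for 1. Such counts were not taken over all genes. The median of all genes also fell from day 4 to day 7, by -0.23, and by -0.04 without 5 low-signal arrays described below. From day 1 to day 42 the genes that rose were Gclc, Sod3, Gpx2, Gpx3, Prdx6, Gsta2, Gsta3, Gstm1, Gstm3, Mgst1 and Mgst2, and those that fell were Gpx7, Prdx2, Prdx4 and Gstm5. A fit of days 1 and 42 alone lost 7 of these 15 calls, those of Gpx2, Prdx6, Gsta2, Gstm3, Gpx7, Prdx2 and Gstm5, with 13.7% of all genes called. With the median of each array as the scale, the step from day 7 to day 14 held 3 higher and 1 lower genes (8.20% of all genes in either direction). Day 42 against day 14 gave 3 higher and 0 lower on that scale (3.11%), and 6 higher and 0 lower after quantile normalization (6.12%).

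**Figure D1:**
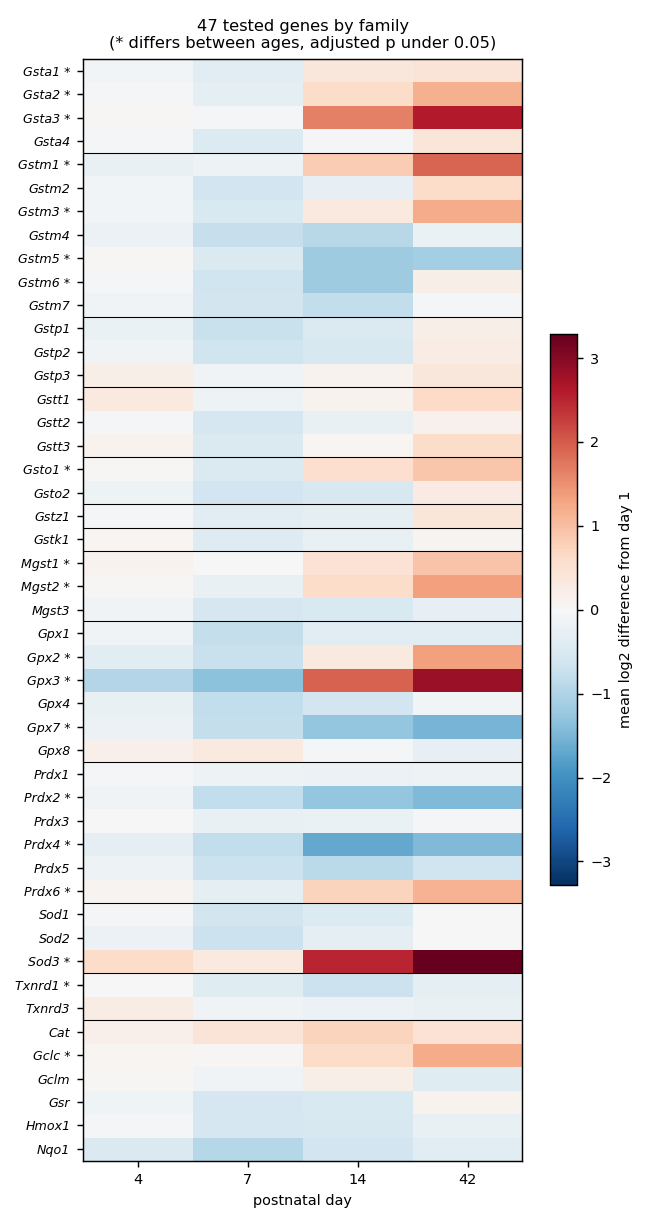
Heat map of the mean log2 difference from day 1 at days 4, 7, 14 and 42 (columns) for the 47 tested genes (rows, grouped by family), with a star for the 19 genes that differed between ages at adjusted p under 0.05. The deepest red squares are those of Sod3 and Gpx3 at days 14 and 42 and of Gsta3 at day 42, while Prdx2, Prdx4, Gpx7 and Gstm5 are blue there and most other rows are pale.

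A set of 5 arrays stood apart from the other 19 on the first principal component (49.8% of the variance): replicate 4 of day 42, replicates 1 and 3 of day 4 and replicates 4 and 5 of day 1. Their 75th percentile of signal was at most 979.3 intensity units (others at least 995.5), and at most 56.0% of their probes were well above background (others at least 57.0%). On them most of the 47 genes read high: 43 were higher than on the other arrays of day 1 (median difference 1.09, all genes 0.57), 42 on those of day 4 (0.79, all genes 0.50) and 42 on the one of day 42 (1.13, all genes 0.63). The part of this in the results was not tested, so the called differences that involve their ages, and those of other members from day 1 to day 42, are also given without these 5 arrays. Without them 31 of the 47 genes differed between ages (53.9% of all genes), the 12 further ones being Gclm, Gpx1, Gpx8, Gsta4, Gstm2, Gsto2, Gstp2, Gstt1, Gstt2, Gstt3, Gstz1 and Txnrd3. By comparison, 19 were higher and 7 lower from day 7 to 14 (20.5% and 18.1%), 11 higher and 3 lower from day 14 to 42 (6.73% and 6.82%), and 21 higher and 5 lower from day 1 to 42 (22.6% and 24.1%). Without these and day 14 replicate 5, which read low for several genes, 32 of the 47 differed between ages (57.1% of all genes). In either direction 27 then passed from day 7 to 14 (44.7%), 12 from day 14 to 42 (14.2%) and 26 from day 1 to 42 (48.5%). Day 4 against day 1 gave 1 gene (1.64%), Sod3, which was 0.84 higher (adjusted p = 0.00894 by limma), and day 7 against day 4 gave 0 (0.164%). All 29 pairwise calls kept their direction and passed without the 5 arrays. Of these 29 calls, 19 were between groups whose arrays did not overlap, and 26 had 1 direction within each of the 3 slides. The exceptions were Gpx7, Gstm5 and Prdx2 from day 1 to day 42, with 0.27, 0.23 and 0.35 on slide 3, where the only day 42 array is one of the 5. Overlap and slide direction were not counted over all called genes. Passing the test itself favours groups that lie apart, so these counts only describe the calls.

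**Figure D2:**
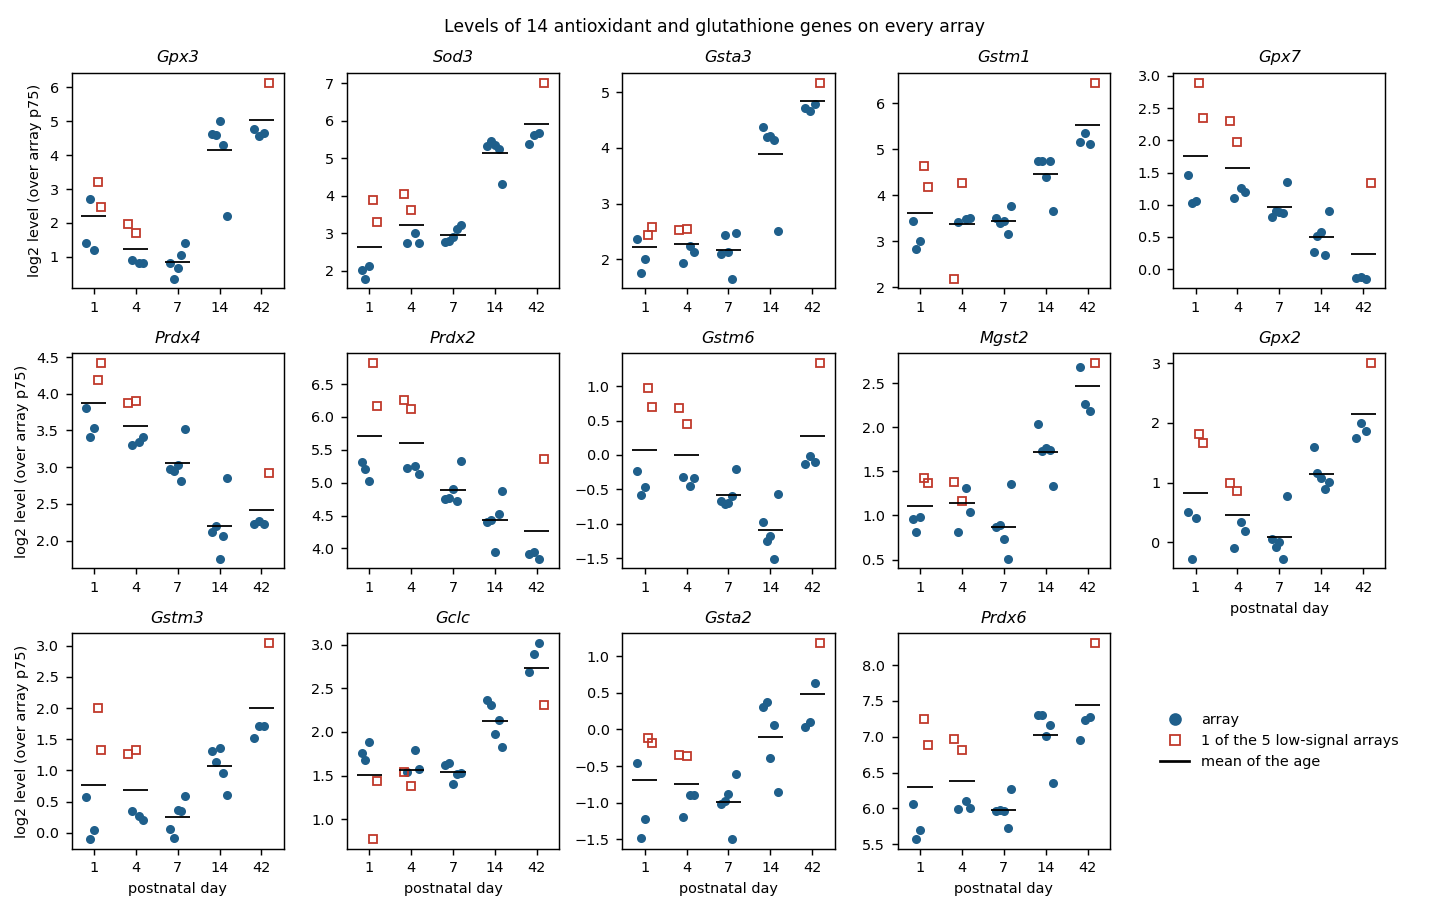
Log2 level over the 75th percentile of the array (vertical axis, one scale per panel) by postnatal day (horizontal axis) for 14 genes on all 24 arrays, with filled circles for arrays, red open squares for the 5 arrays of low signal and a line at the mean of each age. Sod3 and Gpx3 step up between days 7 and 14, Prdx4 and Prdx2 lie lower at days 14 and 42 than at days 1 and 4, and the red squares lie above the circles of their age in most panels but below them for Gclc at days 1 and 42.

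Among the enzymes of glutathione supply, Gclc rose, Gclm was lower at day 42 than at day 14, and Gsr passed no test. Gclc, the catalytic subunit of glutamate-cysteine ligase, stood at 1.76, 1.68, 1.88, 0.78 and 1.44 at day 1, 1.54, 1.54, 1.38, 1.79 and 1.57 at day 4 and 1.62, 1.64, 1.41, 1.52 and 1.53 at day 7 (replicates in order). The later ages gave Gclc levels of 2.36, 2.31, 1.97, 2.14 and 1.83 at day 14 and 2.69, 2.89, 3.01 and 2.31 at day 42. Every day 42 array and all but 1 of the day 14 arrays lay above every array of days 1, 4 and 7, and the 5 low-signal arrays did not read high here. The level was 1.22 ± 0.19 higher (adjusted p = 4.6e-05) at day 42 than at day 1, a fitted 2.33-fold, and 1.09 ± 0.13 without the 5 arrays (adjusted p = 6.57e-06). At day 14 it was 0.58 ± 0.18 higher (adjusted p = 0.0423) than at day 7, a call that was lost without 12 of the 24 single arrays (adjusted p = 0.0504 to 0.124). It was also lost with quantile or median scaling, in the authors' deposited table, with no filter on dim probes and with the slide or the replicate number as a block.

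Gclm, the modifier subunit, had mean levels of -2.10 ± 0.15 at day 1, -1.91 ± 0.28 at day 14 and -2.50 ± 0.07 at day 42. All 4 day 42 arrays lay below all 5 day 14 arrays. It was lower, with a log2 difference of -0.58 ± 0.16 (adjusted p = 0.0391), at day 42 than at day 14, and -0.59 ± 0.14 without the 5 arrays (adjusted p = 0.0104). The F-test over all ages did not pass (adjusted p = 0.0534), and the pairwise call was lost without 9 of the 24 single arrays (adjusted p = 0.0508 to 0.113). Normexp background correction, quantile or median scaling, no filter on dim probes, the slide or the replicate number as a block and a fit of the compared ages alone lost it too. Within each array, the change from day 1 to day 42 of Gclc was 1.61 ± 0.32 (SD over the 4 day 42 arrays, with 0.52 over the 5 day 1 arrays) log2 units above that of Gclm. An equal shift of all levels of an array cannot move this value. It was still lowest on a low-signal array at both ages, day 1 replicate 4 (-0.76 from the day 1 mean) and day 42 replicate 4 (1.19). Without the 5 arrays Gclc had 1.09 ± 0.13 and Gclm -0.31 ± 0.16 from day 1 to day 42. Gsr, glutathione reductase, stood at 3.97 ± 0.60 at day 1 and 4.08 ± 0.45 at day 42, with a difference of 0.11 ± 0.26 (adjusted p = 0.788), and 0.32 ± 0.16 without the 5 arrays (adjusted p = 0.106).

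Of the 3 superoxide dismutases the secreted one rose. Sod3, the secreted form that binds the extracellular matrix, rose more than any other of the 47 genes from day 1 to day 42. Sod3 measured 2.03, 1.80, 2.13, 3.90 and 3.31 at day 1, 4.05, 2.75, 3.62, 3.00 and 2.73 at day 4 and 2.77, 2.79, 2.89, 3.12 and 3.23 at day 7. For Sod3 the last ages had 5.32, 5.45, 5.35, 5.25 and 4.32 at day 14 and 5.36, 5.63, 5.67 and 7.00 at day 42. All day 14 and day 42 arrays exceeded every earlier array, and day 14 replicate 5 was the lowest of its age. It was 3.28 ± 0.40 higher (adjusted p = 1.54e-06) at day 42 than at day 1, a fitted 9.73-fold, and 3.57 ± 0.23 without the 5 arrays (adjusted p = 3.54e-08). Most of this lay between days 7 and 14, where Sod3 was 2.18 ± 0.38 higher (adjusted p = 0.000402), a fitted 4.53-fold. The later step, 0.78 ± 0.40 (adjusted p = 0.408), did not pass.

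Sod1, the copper and zinc enzyme of the cytosol, stood at 6.91 ± 0.81 at day 1, 6.32 ± 0.26 at day 7 and 6.93 ± 0.66 at day 42. Its difference from day 1 to day 42 was 0.02 ± 0.35 (adjusted p = 0.978). Sod2, the manganese enzyme of mitochondria, had 5.17 ± 0.56 at day 1 and 5.18 ± 0.53 at day 42, a difference of 0.01 ± 0.28 (adjusted p = 0.984). Neither passed the F-test (adjusted p = 0.348 and 0.18). Within each array the change of Sod3 from day 1 to day 42 exceeded that of Sod1 by 3.27 ± 0.13 log2 units (SD at day 42, and 0.24 at day 1). Without the 5 low-signal arrays the differences were 0.25 ± 0.16 (adjusted p = 0.213) for Sod1 and 0.10 ± 0.19 (adjusted p = 0.694) for Sod2.

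In the glutathione peroxidase (Gpx) family, the secreted Gpx3 and the epithelial Gpx2 rose and Gpx7 fell. Gpx3, the plasma glutathione peroxidase, read 1.41, 2.70, 1.21, 3.21 and 2.46 at day 1, 1.97, 0.91, 1.70, 0.82 and 0.83 at day 4 and 0.81, 0.36, 0.67, 1.07 and 1.40 at day 7. Its values were 4.63, 4.59, 5.02, 4.30 and 2.20 at day 14 and 4.76, 4.58, 4.66 and 6.13 at day 42. Days 14 and 42 lay above all earlier arrays with the exception of day 14 replicate 5, which was within the range of day 1. Gpx3 was 3.29 ± 0.46 higher (adjusted p = 6.11e-05) at day 14 than at day 7, a fitted 9.76-fold and the widest step of any of the 47 genes between neighbouring ages. It was 2.84 ± 0.49 higher (adjusted p = 0.000121) at day 42 than at day 1, a fitted 7.14-fold, and 2.90 ± 0.54 without the 5 arrays (adjusted p = 0.000321). The differences before day 14, -0.95 ± 0.46 (adjusted p = 0.978) to day 4 and -0.38 ± 0.46 (adjusted p = 0.548) to day 7, did not pass.

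Gpx2, a glutathione peroxidase known from epithelia of the gut and airways, gave 0.50, -0.28, 0.40, 1.82 and 1.66 at day 1, 1.00, -0.09, 0.87, 0.34 and 0.18 at day 4 and 0.05, -0.08, 0.00, -0.28 and 0.77 at day 7. At day 14 the level of Gpx2 was 1.59, 1.15, 1.08, 0.88 and 1.01, and at day 42 it was 1.75, 1.99, 1.87 and 3.00. The day 14 arrays all lay above the day 7 arrays, and the day 42 arrays overlapped with the highest day 1 array. It was 1.33 ± 0.36 higher (adjusted p = 0.00762) at day 42 than at day 1 and 1.66 ± 0.25 without the 5 arrays (adjusted p = 4.33e-05). It was 1.05 ± 0.34 higher (adjusted p = 0.0484) at day 14 than at day 7, which was lost without 17 of the 24 single arrays (adjusted p = 0.0505 to 0.135). Median scaling, no filter on dim probes and the replicate number as a block lost it too.

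Gpx7, a peroxidase of the endoplasmic reticulum that works with protein disulfide isomerases, stood at 1.47, 1.02, 1.06, 2.89 and 2.35 at day 1, 2.30, 1.11, 1.98, 1.26 and 1.19 at day 4 and 0.81, 0.90, 0.89, 0.87 and 1.36 at day 7. The later ages gave Gpx7 levels of 0.27, 0.51, 0.58, 0.22 and 0.90 at day 14 and -0.14, -0.12, -0.15 and 1.34 at day 42. Of the 4 day 42 arrays, 3 lay below every array of the other ages, and replicate 4, one of the low-signal arrays, lay among those of day 1. Gpx7 was lower, with a log2 difference of -1.53 ± 0.36 (adjusted p = 0.00279), at day 42 than at day 1, a fitted 2.88-fold lower level, and -1.32 ± 0.17 without the 5 arrays (adjusted p = 1.22e-05). Its paralog of the same compartment, Gpx8, had -0.26 ± 0.26 (adjusted p = 0.51) from day 1 to day 42, and -0.38 ± 0.14 without the 5 arrays (adjusted p = 0.0321). Within each array the change of Gpx3 exceeded that of Gpx7 by 4.36 ± 0.08 (SD at day 42, and 0.71 at day 1).

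Gpx1, the general cytosolic form, and Gpx4, which reduces lipid peroxides in membranes, did not pass the F-test (adjusted p = 0.295 and 0.264). Gpx1 stood at 5.98 ± 0.84 at day 1 and 5.62 ± 0.57 at day 42, and Gpx4 at 5.55 ± 0.94 and 5.46 ± 0.72. Without the 5 arrays Gpx1 passed the F-test (adjusted p = 0.041) and was 0.41 ± 0.11 higher at day 14 than at day 7 (adjusted p = 0.00634). From day 1 to day 42 Gpx1 had -0.35 ± 0.35 (adjusted p = 0.505), and -0.06 ± 0.14 without the 5 arrays (adjusted p = 0.767). Gpx4 had -0.10 ± 0.38 (adjusted p = 0.875), and 0.18 ± 0.16 without the 5 arrays (adjusted p = 0.375). Catalase, the peroxisomal enzyme that splits hydrogen peroxide without glutathione, had 1.74 ± 0.67 at day 1, 2.46 ± 0.17 at day 14 and 2.21 ± 0.38 at day 42. Its difference from day 1 to day 42 was 0.48 ± 0.27 (adjusted p = 0.212), and 0.21 ± 0.15 without the 5 arrays (adjusted p = 0.283). The dimmer of its 2 probes differed between ages (adjusted p = 0.00703) and was 0.74 higher at day 42 than at day 1 (adjusted p = 0.00284 by limma over all genes), so the probes disagree on the call.

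The peroxiredoxins, which remove peroxides through a cysteine that for most of them thioredoxin recharges, split: Prdx4 and Prdx2 fell and Prdx6 rose, while Prdx1, Prdx3 and Prdx5 did not pass. Prdx4, the form of the endoplasmic reticulum that aids disulfide formation in secreted proteins, measured 3.80, 3.41, 3.53, 4.19 and 4.42 at day 1, 3.88, 3.30, 3.90, 3.34 and 3.41 at day 4 and 2.98, 2.95, 3.03, 2.81 and 3.52 at day 7. For Prdx4 the last ages had 2.12, 2.20, 1.75, 2.07 and 2.86 at day 14 and 2.22, 2.27, 2.23 and 2.92 at day 42. No day 42 array reached the lowest day 1 array. Prdx4 was lower, with a log2 difference of -1.46 ± 0.24 (adjusted p = 7.09e-05), at day 42 than at day 1, a fitted 2.75-fold lower level, and -1.34 ± 0.21 without the 5 arrays (adjusted p = 8.68e-05). It was lower, with a log2 difference of -0.86 ± 0.23 (adjusted p = 0.0141), at day 14 than at day 7, a call lost without day 14 replicate 3 (adjusted p = 0.0526).

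Prdx2, a cytosolic form that is very abundant in red blood cells, read 5.32, 5.20, 5.02, 6.82 and 6.16 at day 1, 6.26, 5.22, 6.12, 5.26 and 5.13 at day 4 and 4.76, 4.77, 4.90, 4.72 and 5.33 at day 7. Its values were 4.40, 4.44, 3.95, 4.53 and 4.88 at day 14 and 3.91, 3.95, 3.85 and 5.37 at day 42. Day 42 replicate 4 overlapped with day 1, and the other 3 day 42 arrays were the lowest of the course together with day 14 replicate 3. It was lower, with a log2 difference of -1.44 ± 0.36 (adjusted p = 0.00401), at day 42 than at day 1, a fitted 2.71-fold lower level, and -1.28 ± 0.19 without the 5 arrays (adjusted p = 3.51e-05). The list of red cell precursor genes averaged -0.53 to 0.56 over the arrays of days 1 to 14 and -2.65 to -1.57 on those of day 42. Of its 7 tested genes 5 were lower at day 42 than at day 1, as were 13.7% of all genes (Slc4a1, the anion exchanger of red cells, by -4.47 ± 0.37, adjusted p = 1.18e-08 by limma). Epb42 and Rhag were among those not well above background on any day 42 array. The part of the red cell list in the Prdx2 result was not tested.

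Prdx6, which reduces phospholipid peroxides, has a phospholipase activity and is abundant in alveolar type 2 and club cells, gave 6.07, 5.58, 5.70, 7.25 and 6.88 at day 1, 6.97, 5.99, 6.82, 6.11 and 6.01 at day 4 and 5.97, 5.98, 5.96, 5.72 and 6.28 at day 7. At day 14 the level of Prdx6 was 7.30, 7.30, 7.01, 7.17 and 6.35, and at day 42 it was 6.95, 7.23, 7.28 and 8.30. All day 14 arrays lay above all day 7 arrays, whereas day 42 overlapped with replicate 4 of day 1, a low-signal array. It was 1.04 ± 0.31 higher (adjusted p = 0.0307) at day 14 than at day 7, which was lost without any single array among replicates 1 to 4 of those ages (adjusted p = 0.0596 to 0.0837) and with median scaling. At day 42 it was 1.15 ± 0.33 higher (adjusted p = 0.0119) than at day 1 and 1.37 ± 0.21 without the 5 arrays (adjusted p = 5.39e-05). With the median of each array as the scale, neither this nor the F-test passed. The 3 other probes of Prdx6 gave 1.18 to 1.32 from day 1 to day 42. Within each array the change of Prdx6 from day 1 to day 42 exceeded that of Prdx4 by 2.61 ± 0.27 (SD at day 42, and 0.38 at day 1).

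The differences from day 1 to day 42 were -0.16 ± 0.17 (adjusted p = 0.552) for Prdx1, -0.04 ± 0.17 (adjusted p = 0.875) for the mitochondrial Prdx3 and -0.65 ± 0.39 (adjusted p = 0.247) for Prdx5. Without the 5 arrays they were -0.12 ± 0.13 (adjusted p = 0.471), -0.04 ± 0.14 (adjusted p = 0.832) and -0.40 ± 0.18 (adjusted p = 0.0794). Thioredoxin reductases are selenoproteins that recharge thioredoxin. The cytosolic Txnrd1 differed between ages (adjusted p = 0.0189), with the highest mean at day 1 (3.46 ± 0.34) and the lowest at day 14 (2.76 ± 0.12), but passed no pairwise test on 24 arrays. Without the 5 arrays it was lower at day 14 than at day 7, by -0.30 ± 0.08 (adjusted p = 0.00691). For the F-test the authors' deposited table did not give the call. Txnrd3, known mainly from testis, had -0.24 ± 0.27 (adjusted p = 0.564) from day 1 to day 42 and -0.14 ± 0.13 without the 5 arrays (adjusted p = 0.415).

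The glutathione transferases made up 24 of the 47 tested genes, and 10 of them differed between ages, where 31.8% of all genes did: 3 of 4 alpha class, 4 of 7 mu class, 1 of 2 omega class and 2 of 3 microsomal genes. The 3 pi class, 3 theta class and single zeta and kappa class genes did not pass the F-test. Members of a class can be nearly identical in sequence, and the probe sequences were not at hand, so signal can be shared between them.

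In the alpha class, which detoxifies lipid peroxidation products, Gsta3 rose most. Gsta3 stood at 2.37, 1.76, 2.00, 2.44 and 2.59 at day 1, 2.52, 1.94, 2.54, 2.24 and 2.13 at day 4 and 2.10, 2.44, 2.14, 1.66 and 2.47 at day 7. The later ages gave Gsta3 levels of 4.38, 4.19, 4.21, 4.14 and 2.51 at day 14 and 4.72, 4.67, 4.79 and 5.17 at day 42. All day 42 arrays lay above every earlier array, and so did 4 of the 5 day 14 arrays above those of days 1, 4 and 7, while day 14 replicate 5 lay among the earlier ages. It was 2.61 ± 0.29 higher (adjusted p = 5.14e-07) at day 42 than at day 1, a fitted 6.09-fold, and 2.68 ± 0.36 without the 5 arrays (adjusted p = 1.55e-05). It was 1.73 ± 0.28 higher (adjusted p = 0.000186) at day 14 than at day 7. The other probe of Gsta3 gave 1.60 for that step and 2.46 from day 1 to day 42.

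Gsta2 measured -0.46, -1.47, -1.23, -0.12 and -0.19 at day 1, -0.35, -1.19, -0.37, -0.89 and -0.89 at day 4 and -1.02, -0.98, -0.88, -1.49 and -0.61 at day 7. For Gsta2 the last ages had 0.31, 0.37, -0.39, 0.07 and -0.86 at day 14 and 0.03, 0.10, 0.63 and 1.17 at day 42. The day 42 arrays all lay above the day 1 arrays and overlapped with those of day 14. It was 1.18 ± 0.32 higher (adjusted p = 0.00685) at day 42 than at day 1 and 1.31 ± 0.31 without the 5 arrays (adjusted p = 0.00248). Gsta1, which with Gsta2 and Gsta4 lies in a cluster on chromosome 9, had -2.93 ± 0.33 at day 7 and -2.20 ± 0.30 at day 14, when it was 0.73 ± 0.22 higher (adjusted p = 0.028). That call was lost without 6 of the 24 single arrays (adjusted p = 0.0533 to 0.0984), with normexp background correction and with quantile or median scaling. The F-test of Gsta1 was lost in those 3 settings too and with the slide or the replicate number as a block. Gsta4, the form most active on hydroxynonenal, had 0.39 ± 0.23 (adjusted p = 0.246) from day 1 to day 42 and did not pass (0.49 ± 0.17 without the 5 arrays (adjusted p = 0.0249)). Gsta3 lies apart on chromosome 1, and within each array its change from day 1 to 42 exceeded that of Gsta4 by 2.22 ± 0.19 (SD at day 42, and 0.23 at day 1).

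The 7 mu class genes lie next to each other on chromosome 3 in the order Gstm5, Gstm7, Gstm6, Gstm3, Gstm2, Gstm1 and Gstm4, with 0 other protein-coding genes between them, and their courses differed. Gstm1 read 3.44, 2.84, 3.01, 4.63 and 4.17 at day 1, 2.19, 3.43, 4.27, 3.48 and 3.51 at day 4 and 3.50, 3.39, 3.43, 3.16 and 3.77 at day 7. Its values were 4.74, 4.75, 4.39, 4.75 and 3.67 at day 14 and 5.16, 5.36, 5.11 and 6.44 at day 42. Every day 42 array lay above every earlier array, and of the low-signal arrays day 4 replicate 1 was the lowest of all 24. Gstm1 was 1.90 ± 0.39 higher (adjusted p = 0.000644) at day 42 than at day 1, a fitted 3.73-fold, and 2.11 ± 0.24 without the 5 arrays (adjusted p = 3.06e-06). From day 7 to day 14 it had 1.01 ± 0.36 (adjusted p = 0.0789), while its dimmer probe passed there (1.22, adjusted p = 0.0225).

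Gstm3 gave 0.57, -0.09, 0.05, 2.01 and 1.32 at day 1, 1.26, 0.36, 1.33, 0.27 and 0.21 at day 4 and 0.06, -0.08, 0.36, 0.35 and 0.60 at day 7. At day 14 the level of Gstm3 was 1.31, 1.14, 1.37, 0.96 and 0.61, and at day 42 it was 1.51, 1.72, 1.71 and 3.04. The 4 day 42 arrays overlapped with 1 low-signal array of day 1, and the highest of them was day 42 replicate 4. It was 1.22 ± 0.38 higher (adjusted p = 0.0181) at day 42 than at day 1, and 1.47 ± 0.20 without the 5 arrays (adjusted p = 2.3e-05). This call was lost without day 1 replicate 2 (adjusted p = 0.0529) or without day 42 replicate 4 (0.0687), and with the median of each array as the scale.

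Gstm6 stood at -0.24, -0.59, -0.46, 0.97 and 0.70 at day 1, 0.68, -0.32, 0.45, -0.46 and -0.34 at day 4 and -0.67, -0.72, -0.70, -0.59 and -0.20 at day 7. The later ages gave Gstm6 levels of -0.97, -1.25, -1.17, -1.51 and -0.56 at day 14 and -0.12, -0.02, -0.10 and 1.33 at day 42. Its 4 lowest arrays were of day 14, and all arrays of day 14 lay below all of day 42. It was 1.36 ± 0.34 higher (adjusted p = 0.0259) at day 42 than at day 14 and 1.01 ± 0.17 without the 5 arrays (adjusted p = 0.000994), but 0.20 ± 0.34 (adjusted p = 0.723) from day 1 to day 42 (0.35 ± 0.19 without the 5 arrays (adjusted p = 0.142)). The call was lost without day 14 replicate 2, day 14 replicate 4 or day 42 replicate 4 (adjusted p = 0.061 to 0.119), with the mean of its 3 probes and in a fit of the compared ages alone.

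Gstm5 went the other way, with 1.94 ± 0.46 at day 1, 1.46 ± 0.21 at day 7 and 0.83 ± 0.55 at day 42. It was lower, with a log2 difference of -1.11 ± 0.29 (adjusted p = 0.006), at day 42 than at day 1, a fitted 2.16-fold lower level, and -1.06 ± 0.22 without the 5 arrays (adjusted p = 0.000987). Within each array the change of Gstm1 from day 1 to day 42 exceeded that of Gstm5 by 3.01 ± 0.18 (SD at day 42, and 0.42 at day 1). From day 1 to day 42 Gstm2 had 0.61 ± 0.40 (adjusted p = 0.29), Gstm4 -0.22 ± 0.38 (adjusted p = 0.721) and Gstm7 -0.04 ± 0.39 (adjusted p = 0.959), and none of these 3 passed the F-test. Without the 5 low-signal arrays Gstm2 passed from day 1 to day 42 (0.84 ± 0.15, adjusted p = 0.000237), while Gstm4 had 0.06 ± 0.18 (adjusted p = 0.81) and Gstm7 0.03 ± 0.31 (adjusted p = 0.945). The second probe of Gstm4 was 1.06 higher (adjusted p = 0.0369 by limma), against the direction of its first.

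**Figure D3:**
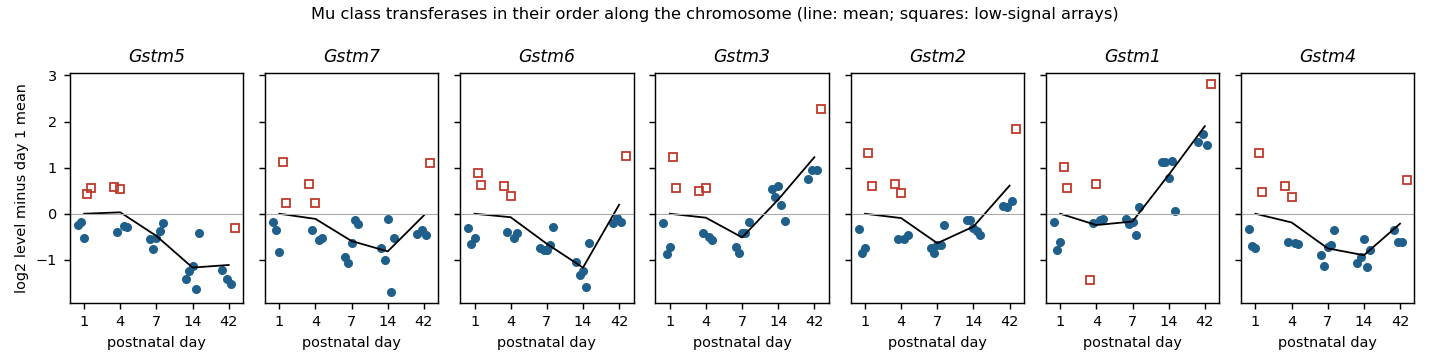
Log2 level minus the day 1 mean (vertical axis) by postnatal day (horizontal axis) for the 7 mu class genes in their order along the chromosome, with circles for arrays, red open squares for the 5 low-signal arrays and a line through the age means. Gstm1 and Gstm3 end above day 1, Gstm5 ends below it, Gstm6 dips at day 14 and returns, and the red squares lie above the circles of their age in nearly all panels.

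The microsomal transferases are membrane proteins unrelated in sequence to the soluble classes. Mgst2, which can also make leukotriene C4, measured 0.96, 0.82, 0.98, 1.43 and 1.37 at day 1, 1.38, 0.81, 1.16, 1.31 and 1.04 at day 4 and 0.87, 0.89, 0.73, 0.51 and 1.36 at day 7. For Mgst2 the last ages had 2.04, 1.73, 1.77, 1.75 and 1.33 at day 14 and 2.68, 2.27, 2.19 and 2.73 at day 42. The levels of day 42 exceeded those of all other ages, and the day 14 arrays those of day 7 with a small overlap. Mgst2 was 0.85 ± 0.18 higher (adjusted p = 0.00291) at day 14 than at day 7 and 0.75 ± 0.19 higher (adjusted p = 0.0321) at day 42 than at day 14. It was 1.36 ± 0.19 higher (adjusted p = 1.3e-05) at day 42 than at day 1. On all 24 arrays it was the sole gene of the 47 called in both later steps by its main probe. The dimmer probes of Mgst1 and Gstm3 passed both steps too, that of Gstm3 at a mean level of -5.94. Without the 5 arrays Gclc, Gclm, Gpx2, Gpx7, Gstm1, Gstm2, Gstm3, Gstm6, Mgst1 and Prdx2 were also called in both steps, in either direction. Calls in both steps were not counted over all genes. The difference of Mgst2 from day 1 to day 42 was 1.46 ± 0.20 without the 5 arrays (adjusted p = 2.43e-05), and its step from day 14 to day 42 was 0.66 ± 0.18 without the 5 arrays (adjusted p = 0.0245). The call from day 14 to day 42 was lost without 6 of the 24 single arrays (adjusted p = 0.0513 to 0.108) and in a fit of the compared ages alone. The earlier step was lost with median scaling.

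Mgst1, abundant in outer mitochondrial and microsomal membranes, had 3.84 ± 0.19 at day 1, 3.82 ± 0.13 at day 7, 4.31 ± 0.19 at day 14 and 4.78 ± 0.17 at day 42. It was 0.95 ± 0.14 higher (adjusted p = 1.55e-05) at day 42 than at day 1 and 1.00 ± 0.14 without the 5 arrays (adjusted p = 2.29e-05). From day 7 to 14 it was 0.49 ± 0.13 higher (adjusted p = 0.0145), lost without day 14 replicate 1 (adjusted p = 0.0506), with quantile or median scaling and in the authors' deposited table. Mgst3 had -0.28 ± 0.34 (adjusted p = 0.599) from day 1 to day 42 and -0.12 ± 0.14 without the 5 arrays (adjusted p = 0.504).

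Gsto1, an omega class enzyme that reduces dehydroascorbate and glutathionylated proteins, had 3.64 ± 0.51 at day 7 and 4.66 ± 0.55 at day 14, when it was 1.02 ± 0.33 higher (adjusted p = 0.0488). The arrays of these ages overlapped, and the pairwise call was lost without 16 of the 24 single arrays (adjusted p = 0.0507 to 0.134), with normexp background correction, with median scaling and with no filter on dim probes. The F-test of Gsto1 was lost without 6 single arrays and with median scaling. From day 1 to day 42 Gsto1 had 0.90 ± 0.35 (adjusted p = 0.0635), which did not pass, and 1.13 ± 0.36 without the 5 arrays (adjusted p = 0.0164), which did. Its neighbour Gsto2 had 0.28 ± 0.28 (adjusted p = 0.516) from day 1 to day 42. In the pi class the same difference was 0.19 ± 0.39 (adjusted p = 0.764) for Gstp1, 0.25 ± 0.36 (adjusted p = 0.668) for Gstp2 and 0.38 ± 0.31 (adjusted p = 0.411) for Gstp3. In the theta class it was 0.63 ± 0.39 (adjusted p = 0.261) for Gstt1, 0.13 ± 0.32 (adjusted p = 0.806) for Gstt2 and 0.60 ± 0.37 (adjusted p = 0.257) for Gstt3. It was 0.40 ± 0.24 (adjusted p = 0.245) for Gstz1, which also breaks down tyrosine, and 0.09 ± 0.29 (adjusted p = 0.846) for the mitochondrial Gstk1. None of these passed with 24 arrays. Without the 5 low-signal arrays 7 of them were higher at day 42 than at day 1, as were 22.6% of all genes. These were Gstt1 by 0.86 ± 0.17 (adjusted p = 0.000551), Gstt3 by 0.78 ± 0.18 (adjusted p = 0.00191), Gstz1 by 0.57 ± 0.15 (adjusted p = 0.00443) and Gstp3 by 0.57 ± 0.22 (adjusted p = 0.0418). The others were Gstp2 by 0.53 ± 0.15 (adjusted p = 0.00636), Gsto2 by 0.50 ± 0.15 (adjusted p = 0.0119) and Gstt2 by 0.34 ± 0.13 (adjusted p = 0.0464). Gstp1 had 0.42 ± 0.20 (adjusted p = 0.0929) and Gstk1 0.22 ± 0.16 (adjusted p = 0.284), and neither passed.

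Nqo1, the quinone reductase, and Hmox1, the inducible heme oxygenase, are usual readouts of Nrf2 activity. Nqo1 had -0.97 ± 0.41 at day 1, -1.91 ± 0.33 at day 7 and -1.31 ± 0.41 at day 42, and the F-test did not pass (adjusted p = 0.0745). Hmox1 had 2.42 ± 0.89 at day 1 and 2.19 ± 0.72 at day 42, a difference of -0.23 ± 0.38 (adjusted p = 0.705). From day 1 to day 42 Nqo1 had -0.34 ± 0.28 (adjusted p = 0.429). Without the 5 arrays the difference was -0.26 ± 0.28 for Nqo1 and 0.02 ± 0.21 for Hmox1, neither past the test.

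**Figure D4:**
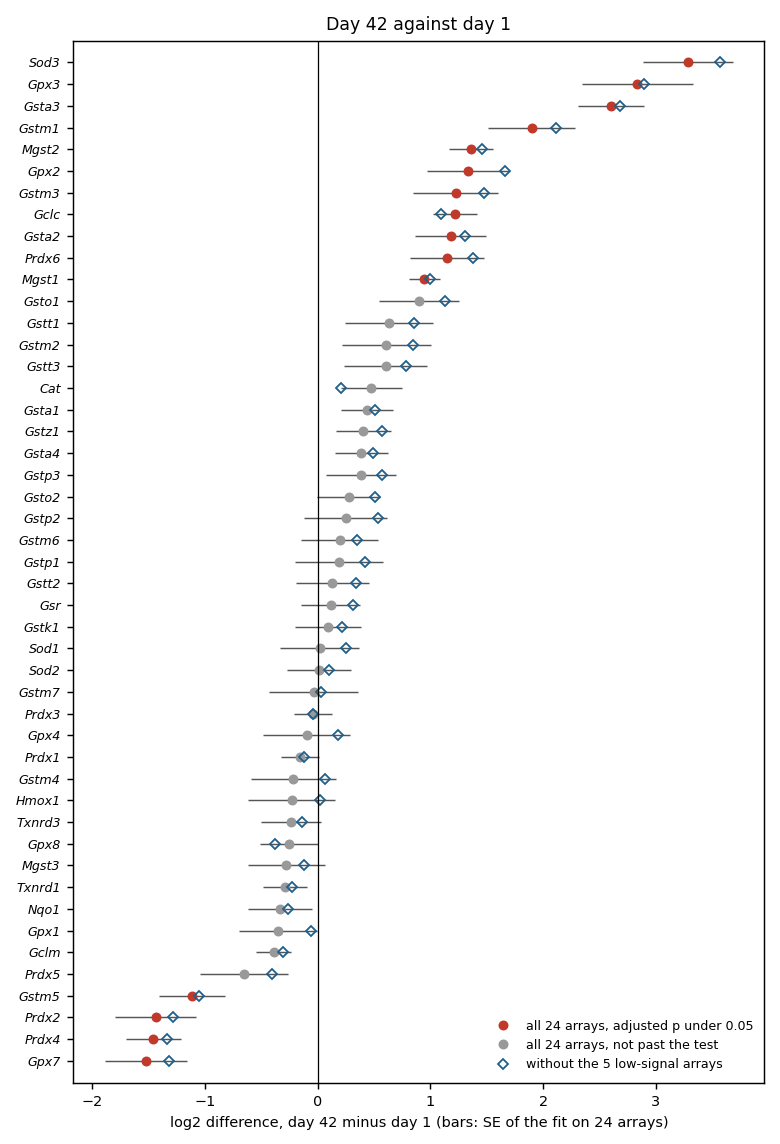
Log2 difference of day 42 minus day 1 (horizontal axis) for the 47 tested genes (vertical axis, ordered by the difference), with dots and SE bars from the fit on all 24 arrays, red where adjusted p is under 0.05, and blue diamonds for the fit without the 5 low-signal arrays. The 11 red dots at the top run from Mgst1 (0.95) to Sod3 (3.28) and the 4 at the bottom from Gstm5 (-1.11) to Gpx7 (-1.53), and each diamond of these lies on the same side of 0.

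Of 115 further genes of the pathway, 111 were tested and 39 differed between ages (31.8% of all genes). Their values below are from all 24 arrays. Day 42 against day 1 gave 23 higher and 8 lower (13.0% and 13.7% of all genes). There were 10 higher and 5 lower from day 7 to day 14 (6.04% and 5.54%), and 9 higher and 0 lower from day 14 to day 42 (2.18% and 1.51%). Of 10 regulators of the Nrf2 pathway, 2 differed: Nfe2l2 itself was higher at day 42 than at day 1 by 0.51 ± 0.18 (adjusted p = 0.0435), and Bach2, a repressor of such promoters, was lower at day 14 than at day 7 by -0.96 ± 0.25 (adjusted p = 0.0117). Keap1, which holds Nrf2 in check, and the small Maf genes were among the 8 that did not pass.

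Of 16 genes of glutathione synthesis, cleavage and cystine uptake, 7 differed between ages (31.8% of all genes), with 6 higher and 2 lower at day 42 than at day 1 (13.0% and 13.7%). The highest differences were those of 3 gamma-glutamyltransferases, which cleave glutathione outside the cell. Ggt5 was higher by 1.77 ± 0.22 (adjusted p = 1.68e-06) and Ggt6 by 1.57 ± 0.37 (adjusted p = 0.00271). Ggt1 was not well above background on any array of days 1, 4 and 7 and was on all 4 of day 42, where it was at least 3.27-fold higher than at day 1 (mean level -3.70 against -6.41, adjusted p = 0.000209). Ggt7, of the same family and picked after its values were seen, was lower at day 42 than at day 1 (-0.84 ± 0.24, adjusted p = 0.0106). The bound for Ggt1 compares the mean at day 42 with the detection limit of each day 1 array, taken as its dimmest probe that was well above background.

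Of 14 thioredoxins, glutaredoxins and their partners 4 differed between ages. For this and the next lists, 31.8% of all genes differed, with 13.0% higher and 13.7% lower at day 42 than at day 1. Sesn1 was higher at day 42 than at day 1 (0.72 ± 0.16, adjusted p = 0.00121) and Glrx3 lower (-0.62 ± 0.19, adjusted p = 0.0154), while Srxn1, which repairs overoxidized peroxiredoxins, had 0.69 ± 0.27 (adjusted p = 0.0603). Of 8 genes of NADPH supply 2 differed: the mitochondrial Idh2 was lower at day 42 than at day 1 (-1.24 ± 0.32, adjusted p = 0.00525) and the malic enzyme Me1 higher at day 42 than at day 14 (0.86 ± 0.20, adjusted p = 0.015). Of 8 genes listed under selenocysteine incorporation, 3 differed. Sephs1 (-1.42 ± 0.16, adjusted p = 6.71e-07) and Pstk (-0.81 ± 0.14, adjusted p = 0.000124) were lower at day 42 than at day 1, and Sepsecs had 0.35 ± 0.16 (adjusted p = 0.115). Sephs2, among those that did not differ between ages, had -0.29 ± 0.25 (adjusted p = 0.443) from day 1 to day 42. Of 21 other antioxidant proteins 4 differed, and 3 were higher at day 42 than at day 1. Among these were the ferroxidase ceruloplasmin (Cp, 1.59 ± 0.23, adjusted p = 1.2e-05) and the selenium carrier Selenop (1.17 ± 0.39, adjusted p = 0.0263). Mt2, a metallothionein, had -0.49 ± 0.31 (adjusted p = 0.284).

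In whole tissue, fewer cells of a type and less RNA per cell cannot be told apart, and marker genes of several cell types moved over the same ages. The list counts below stand beside 13.0% of all genes higher and 13.7% lower at day 42 than at day 1. The alveolar macrophage list averaged 1.58 to 2.49 on the arrays of days 1, 4 and 7, 2.89 to 3.1 at day 14 and 3.39 to 3.82 at day 42, with 7 of 10 genes higher at day 42 than at day 1 (Chil3 by 5.77 ± 0.36, adjusted p = 7.07e-10). The club cell list averaged 3.18 to 3.95 at day 1 and 4.20 to 5.02 at day 42, with 4 of 7 genes higher and 1 lower (Scgb1a1 higher by 1.30 ± 0.28, adjusted p = 0.00124). The adipocyte list averaged -4.25 to -2.51 at day 1 and -0.43 to 4.02 at day 42, with 6 of 7 genes higher. The list of dividing cells averaged 3.11 to 3.46 at day 1, -0.41 to 1.61 at day 14 and -0.09 to 0.51 at day 42, with all 8 genes lower at day 42 than at day 1.

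The ciliated cell list averaged -0.28 to 0.38 at day 1 and 0.75 to 1.38 at day 42, with 3 of 8 genes higher and 0 lower (13.0% and 13.7% of all genes). The list of smooth muscle and pericytes averaged 3.55 to 5.22 at day 1 and 2.74 to 4.08 at day 42, with 0 of 7 higher and 3 lower. Of the other lists, alveolar type 1 cells had 2 of 7 higher and 0 lower, alveolar type 2 cells and endothelium 1 of 8 each and 0 lower, and neutrophils 1 of 7 higher and 2 lower. The 6 liver and 8 cardiac muscle genes did not pass, though the liver list ran from -4.71 to 4.04 among the day 7 arrays and the cardiac list from 0.46 to 6.15 among those of day 1. Every tested marker of the macrophage, club cell and alveolar lists was well above background on at least 1 array of each age. The part of these cell types in the courses of the 47 genes was not tested.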

How the data were processed

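The 24 single-colour scans were read by Feature Extraction, whose version is 10.7.3.1 per the file headers and 10.7.1.1 per the submitters' processing notes. The deposited intensity used was its background-subtracted processed signal, and its spot flags (signal well above background, saturation, uneven spots) were read too. The authors also deposited a table of log2 values, whose scaling is not given in the sources used here.

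The members, gene lists and tests were chosen with earlier results of these data known. Log2 of the processed signal was taken minus each array's 75th percentile. Control spots and uneven spots were dropped, the remaining spots of each probe were averaged, and 138 probes without a usable spot dropped. RefSeq accessions gave 26056 of 55681 probes a gene symbol, and 29625 had none. A gene was its probe with the highest mean over 24 arrays, tested when well above background on at least 4 arrays. On all arrays 0 spots were saturated. Between 50.4% and 79.7% of probes on an array were well above background, and the 75th percentile ran from 476.1 to 1652.7 intensity units.

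In 1 fit of all arrays (limma 3.58.1, R 4.3.3) each age had its own mean, with Benjamini-Hochberg adjustment over 15895 genes at a threshold of 0.05. The fit alone was run on simulated data, for day 42 against day 1, with independent noise for each gene and array. That run held no array-wide shifts and did not cover scaling or the choice of probes, and its outcome is not given here. All members are named. Array values are printed for the 14 members with the largest called difference, values of a fixed list of common antioxidant genes whatever the test, and up to 3 genes per pathway list by the difference from day 1 to day 42. Alternatives were the background (normexp with offset 50, on median spot and background signals because mean signals were not at hand), the scaling, the authors' table, filters, probes, slide and replicate blocks, array weights, the ages in the fit and single arrays left out. Leaving out the 5 low-signal arrays, and these with day 14 replicate 5, was added with the data known, as was testing each probe on its own. The label of 1 day 14 sample gives replicate 3 in its source name and 4 in its title, and the title was followed.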

Additional observations from a re-analysis of the deposited data

Results flagged for a closer look

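In 12 of 70 groups of arrays (14 genes at 5 ages) the highest or lowest array lay apart from the others by Dixon's criterion, which chance does in about 1 group in 20 (arrays shared by the genes make these groups dependent). On day 14 replicate 5 the levels were low: Gpx3 stood at 2.20 (others 4.30 to 5.02), Sod3 at 4.32 (others 5.25 to 5.45) and Gsta3 at 2.51 (others 4.14 to 4.38). On day 42 replicate 4, one of the 5 low-signal arrays, they were high: Gpx3 stood at 6.13 (others 4.58 to 4.76), Gpx7 at 1.34 (others -0.15 to -0.12) and Prdx4 at 2.92 (others 2.22 to 2.27). On the same array Prdx2 stood at 5.37 (others 3.85 to 3.95), Gstm6 at 1.33 (others -0.12 to -0.02) and Gstm3 at 3.04 (others 1.51 to 1.72). On day 7 replicate 5 Gpx7 stood at 1.36 (others 0.81 to 0.90), Prdx2 at 5.33 (others 4.72 to 4.90) and Gstm6 at -0.20 (others -0.72 to -0.59).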

How the results depend on the processing

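Among the 47 genes, the count that differed between any ages (19, with 31.8% of all genes) was 35 with the authors' table (44.8%), 44 with array weights (80.5%), 31 when the 5 low-signal arrays were left out (53.9%) and 32 when day 14 replicate 5 was left out too (the 6 arrays, 57.1%). Day 4 against day 1 (0) gave 1 with array weights (2.96%) and 1 without the 6 arrays (1.64%), and day 7 against day 4 (0) gave 16 with array weights (28.6%). Day 14 against day 7 (11, with 11.6%) gave 4 with the median of each array as the scale (8.20%), 20 with the authors' table (22.4%), 38 with array weights (60.5%), 20 with the compared ages alone (31.0%), 27 without the 6 arrays (44.7%) and 26 without the 5 (38.5%). Day 42 against day 14 (3, with 3.69%) gave 6 after quantile normalization (6.12%), 11 with the authors' table (9.60%), 22 with array weights (31.2%), 0 with the compared ages alone (1.30%; a fit with fewer arrays), 12 without the 6 arrays (14.2%) and 14 without the 5 (13.6%). Day 42 against day 1 (15, with 26.7%) gave 23 after quantile normalization (33.1%), 26 with the authors' table (37.7%), 30 with array weights (52.0%), 8 with the compared ages alone (13.7%), 26 without the 6 arrays (48.5%) and 26 without the 5 (46.6%). The share of all genes moved the same way as each of these counts. The cause of these moves was not tested.

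Leaving out each array in turn gave 17 to 22 genes for any ages, 0 to 0 from day 1 to 4, 0 to 0 from day 4 to 7, 5 to 13 from day 7 to 14, 0 to 5 from day 14 to 42 and 14 to 17 from day 1 to 42. The count from day 7 to 14 was 6, 6, 7 and 6 without day 7 replicates 1 to 4, and 5, 6, 6 and 7 without day 14 replicates 1 to 4. From day 14 to 42 it was 0, 1 and 1 without day 14 replicates 2, 3 and 4, 1 without day 42 replicate 1 and 5 without day 1 replicate 4. The shares of all genes were not taken for these single-array fits. Of the 19 genes called for any ages 17 passed without every single array (Gsta1 and Gsto1 did not), and of 29 pairwise calls 18 did. No called difference changed sign under any alternative run.

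Replicate numbers did not pair the arrays: over 46 same-numbered pairs the correlation of deviations ran from -0.849 to 0.879 (median -0.00985), and 4 arrays correlated best with their own number. With the replicate block 18 genes differed between ages (28.7% of all genes). From day 7 to 14, 14 to 42 and 1 to 42, 9, 2 and 16 then passed (10.8%, 3.19% and 24.3%). With the slide as a block these counts were 18, 10, 2 and 16. From day 4 to 7 the median of all genes was -0.23, against -0.13 after quantile normalization, -0.37 with median scaling, -0.01 in the authors' table and -0.04 without the 5 arrays. With median scaling it was -0.17 from day 7 to 14 and 0.30 from day 14 to 42.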

Other observations

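Of 14 other conjugation and detoxification enzymes 7 differed between ages (31.8% of all genes), with 6 higher and 1 lower at day 42 than at day 1 in limma (13.0% and 13.7% of all genes). The microsomal epoxide hydrolase Ephx1 was 2.09 ± 0.36 higher on the log2 scale (adjusted p = 9.53e-05), the retinal dehydrogenase Aldh1a1 2.02 ± 0.25 higher (adjusted p = 2.24e-06) and the sulfotransferase Sult1a1 1.41 ± 0.23 higher (adjusted p = 5.78e-05). Of 6 genes of eicosanoid and glutathione metabolism 1 differed between ages, Ptges, a prostaglandin E synthase of the same protein superfamily as the microsomal transferases. Ptges was 0.39 ± 0.11 higher at day 42 than at day 1 (adjusted p = 0.0121).

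Of 14 oxidant-producing enzymes 9 differed between ages (31.8% of all genes), with 5 higher and 1 lower at day 42 than at day 1 (13.0% and 13.7%). The molybdenum enzymes, which can release superoxide and hydrogen peroxide, had the widest differences. Aox3 was 3.08 ± 0.25 higher (adjusted p = 5.9e-09), Aox1 2.76 ± 0.20 higher (adjusted p = 2.35e-09) and Xdh, xanthine dehydrogenase, 2.69 ± 0.35 higher (adjusted p = 3.38e-06). From day 7 to day 14, the step in which Sod3 and Gpx3 rose most, Aox3 was 2.19 ± 0.23 higher (adjusted p = 6.23e-06), Xdh 2.42 ± 0.33 higher (adjusted p = 4.25e-05) and Aox1 1.44 ± 0.19 higher (adjusted p = 3.37e-05). In that step 6.04% of all genes were higher, and a link between these enzymes and Sod3 or Gpx3 was not tested.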
